A study of Homo sapiens with 6 samples.

Results

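A set of 10 genes for secreted proteins of the extracellular matrix is described here in A375 cells sorted by aldehyde dehydrogenase (ALDH) activity: FN1, TNC, SPARC, THBS1, THBS2, TGFBI, LOX, LOXL2, FBN1 and HMCN1. They are 10 of the 57914 genes in the deposited table and were found in it by gene name. FN1 to FBN1 were grouped by what their proteins do, while HMCN1 was added because it was higher in the cells with high ALDH activity, so its difference between the groups is given as a description with no test. A375 is an established human melanoma cell line, grown in a high-glucose medium with fetal calf serum. The cells were stained with Aldefluor, a dye that fluoresces once aldehyde dehydrogenases have converted it, and the top 5% (ALDH_High) and bottom 5% (ALDH_Low) of the signal were collected without any other treatment, from 1 line and with no unsorted group used here. Each group has 3 libraries of messenger RNA, numbered 1 to 3, and the labels do not say whether they come from separate cultures or sorts, so p-values measure only the spread between these libraries.

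The extracellular matrix is a network of secreted proteins that holds cells, passes on force and stores growth factors. Fibronectin (FN1) is an adhesive fibril protein that integrins bind and assemble. Matricellular proteins, among them tenascin C (TNC), SPARC, the thrombospondins and TGFBI, sit in that network and alter how cells attach and signal more than they bear load. Fibrillin 1 (FBN1) builds the microfibrils on which elastic fibres form and which bind latent TGF-beta, lysyl oxidases (LOX, LOXL2) cross-link collagen and elastin, and hemicentin 1 (HMCN1) is a very large relative of the fibulins. In melanoma, matrix made by the tumour cells themselves is known chiefly from dedifferentiated and invasive states.

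Total counts per library lay between 26692868 and 37830603, and the 10 genes together took between 0.367% and 0.695% of them. On the first principal component of log2 CPM (counts scaled to library size, with TMM factors) the groups lay apart, with 68.2% of the variance. The second, with 13.8%, set ALDH_High library 1 (35.6) apart from ALDH_High libraries 2 and 3 (-16.4 and -22.5). ALDH1A3, named in the study's title, had 683, 1149 and 1088 CPM in ALDH_High libraries 1 to 3 and 345, 420 and 403 CPM in ALDH_Low libraries 1 to 3. Of the 17047 genes expressed highly enough to be tested, 20.6% passed an adjusted p of 0.05 between the groups (edgeR quasi-likelihood test, Benjamini-Hochberg over all genes tested), 10.8% higher and 9.83% lower in ALDH_High.

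Before the values, the promoters of 5 of the genes are shown: TNC and FN1, which were higher in ALDH_High, TGFBI, which was lower, and the paralogs THBS1, which did not pass the test, and THBS2, which was higher. Each runs from 250 bases before to 50 after the start site in RefSeq (GRCh38.p14), 5′ to 3′ on the gene's strand: TNC at chr9:115118108-115118407 (minus), FN1 at chr2:215436019-215436318 (minus), TGFBI at chr5:136028738-136029037 (plus), THBS1 at chr15:39580829-39581128 (plus) and THBS2 at chr6:169253797-169254096 (minus). Capitals mark matches, on either strand, to a TATA box (TATAAA), an AP-1 site (TGANTCA), a TEAD site (GGAATG), a GC box (GGGCGG), the E-box bound by MITF (CACGTG) or the CArG box of SRF.
TNC: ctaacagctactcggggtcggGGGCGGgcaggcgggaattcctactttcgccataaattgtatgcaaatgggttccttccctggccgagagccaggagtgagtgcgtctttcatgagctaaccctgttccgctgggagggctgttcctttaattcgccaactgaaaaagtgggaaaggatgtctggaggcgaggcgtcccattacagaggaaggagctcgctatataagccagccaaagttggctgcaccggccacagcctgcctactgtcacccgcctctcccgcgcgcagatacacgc
FN1: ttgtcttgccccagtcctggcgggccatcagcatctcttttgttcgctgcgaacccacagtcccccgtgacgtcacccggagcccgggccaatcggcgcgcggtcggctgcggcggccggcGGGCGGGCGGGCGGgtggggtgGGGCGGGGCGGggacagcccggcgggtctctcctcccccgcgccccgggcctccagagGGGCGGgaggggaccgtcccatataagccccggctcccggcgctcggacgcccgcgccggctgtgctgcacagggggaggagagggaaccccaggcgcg
TGFBI: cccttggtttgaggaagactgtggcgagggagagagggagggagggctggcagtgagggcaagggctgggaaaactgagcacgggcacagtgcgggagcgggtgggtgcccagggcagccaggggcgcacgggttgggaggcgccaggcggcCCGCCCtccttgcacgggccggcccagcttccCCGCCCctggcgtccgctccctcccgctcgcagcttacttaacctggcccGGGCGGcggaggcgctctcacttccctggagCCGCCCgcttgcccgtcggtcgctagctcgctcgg
THBS1: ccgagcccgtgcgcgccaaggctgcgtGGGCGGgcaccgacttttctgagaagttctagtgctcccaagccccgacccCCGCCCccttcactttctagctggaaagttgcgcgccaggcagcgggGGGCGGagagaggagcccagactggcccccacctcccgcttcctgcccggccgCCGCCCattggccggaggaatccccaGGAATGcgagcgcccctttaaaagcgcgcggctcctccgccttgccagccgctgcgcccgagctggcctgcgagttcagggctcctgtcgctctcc
THBS2: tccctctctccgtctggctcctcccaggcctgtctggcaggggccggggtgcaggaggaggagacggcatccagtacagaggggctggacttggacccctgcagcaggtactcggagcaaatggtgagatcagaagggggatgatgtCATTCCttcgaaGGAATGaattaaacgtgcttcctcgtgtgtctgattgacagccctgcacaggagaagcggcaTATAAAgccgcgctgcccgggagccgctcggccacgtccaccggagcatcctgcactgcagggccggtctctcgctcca
FN1 held 6 GC box matches, some of which overlap each other, TGFBI and THBS1 held 4 each, TNC held 1 and THBS2 held 0. A GC box stood in 44.6% of 27305 promoters of this length. THBS2 alone of the 5 held the exact letters TATAAA, which 12% of promoters hold. TNC and FN1 hold TATAAG, which the search did not count, so it does not show that they lack a TATA box. THBS2 had 2 TEAD matches where THBS1 had 1, and 14% of promoters have at least 1. AP-1, CArG and MITF E-box matches numbered 0 in these windows, against shares of 7.76%, 1.29% and 7.43% of all promoters. The matches describe letters only and were not tested against the expression values; 8 of the 10 genes had an entry in the promoter table.

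Fibronectin and tenascin C rose several-fold in ALDH_High. FN1 (ENSG00000115414, chromosome 2, 215360440 to 215436073, GRCh38) had 251, 267 and 240.4 CPM in ALDH_High libraries 1 to 3 and 48.2, 37.4 and 47.9 CPM in ALDH_Low libraries 1 to 3. All of its ALDH_High values lay far above all of its ALDH_Low values, and within each group the libraries stayed close together. The mean was 253 ± 13.4 against 44.5 ± 6.14 CPM (SD, n = 3), a 5.68-fold difference (log2 fold change 2.51, SE 0.13, edgeR adjusted p 3.98e-06).

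TNC (ENSG00000041982, chromosome 9, 115019575 to 115118207), an anti-adhesive glycoprotein that is abundant in developing tissue, wounds and tumours, had 1999, 1673 and 1615 CPM in ALDH_High and 345, 348 and 403 CPM in ALDH_Low. ALDH_High library 1 was the highest, and the lowest ALDH_High library was still well over the highest ALDH_Low library. The mean was 1762 ± 207 against 365 ± 32.6 CPM (SD, n = 3), 4.83-fold higher (log2 fold change 2.27, SE 0.13, edgeR adjusted p 4.69e-06). Per length, in the deposited TPM (scaled to transcript length and library), TNC stood at 393 ± 18.9 in ALDH_High and FN1 at 68.8 ± 5.58, so tenascin C was the more abundant of the pair; in ALDH_Low the levels were 78.8 ± 4.23 and 11.7 ± 1.48 TPM (SD, n = 3).

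SPARC (ENSG00000113140, chromosome 5, 151661096 to 151686975), a collagen-binding protein long known in melanoma, was the most abundant of the 10 per length (TPM) in both groups and had the smallest fold change of the 4 that rose. It had 1615, 1118 and 1029 CPM in ALDH_High and 770, 638 and 651 CPM in ALDH_Low. The groups did not overlap, and library 1 was the highest in each. The mean was 1254 ± 316 against 686 ± 72.8 CPM (SD, n = 3), 1.83-fold higher (log2 fold change 0.87, SE 0.17, edgeR adjusted p 0.00498). By mean TPM, SPARC ranked 113 among all 57914 genes in ALDH_High and 185 in ALDH_Low.

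The thrombospondins, multimeric glycoproteins that bind CD47 and CD36 and inhibit vessel growth, are represented by THBS1 and THBS2. THBS1 (ENSG00000137801, chromosome 15, 39581079 to 39599466) had 1095, 3394 and 3279.7 CPM in ALDH_High and 1872, 2559 and 2272 CPM in ALDH_Low. Of its 3 ALDH_High libraries, 2 lay above the whole ALDH_Low group and the other, library 1, lay below it, so the groups overlapped.  The means were 2590 ± 1295 and 2234 ± 345 CPM (SD, n = 3), and the difference did not pass (log2 fold change 0.21, SE 0.34, edgeR adjusted p 0.718). Without ALDH_High library 1 it was 0.60 (edgeR adjusted p 0.00819; over 15 alternatives it spanned 0.00819 to 0.990), and without ALDH_High library 2 it was -0.01.

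In ALDH_High library 1, the log2 CPM of THBS1 minus the mean of the other 2 ALDH_High libraries was -1.61, at percentile 0.205 of all genes tested for that difference. Other matrix and receptor genes were also away from their group in that library. CCN1 and CCN2, matricellular proteins induced quickly by serum and stretch, differed there by -0.82 and -0.55, at percentiles 3.17 and 8.96, whereas LOXL4 and the integrin chain ITGB3 differed by 1.30 and 1.197, at percentiles 99.6 and 99.4. These 4 were chosen after their values were seen. Among the other tested genes of the set, this difference ran from -0.32 for HMCN1 (percentile 20.3) to 0.72 for THBS2 (percentile 96.4). The next highest was SPARC, at 0.59 (percentile 93.2). What sets library 1 apart was not tested. Between the groups, CCN1 fell from 499 ± 62.5 CPM in ALDH_Low to 170 ± 52.3 CPM in ALDH_High (SD, n = 3), with no overlap. Its log2 fold change was -1.55 (edgeR adjusted p 0.000635), and CCN2 did not pass (-0.44, edgeR adjusted p 0.173).

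THBS2 (ENSG00000186340, chromosome 6, 169215780 to 169254050) was scarce and was higher in ALDH_High, with 3.67, 1.97 and 2.08 CPM against 0.207, 0.268 and 0.359 CPM. Every ALDH_High library exceeded every ALDH_Low library, on counts of 93, 68 and 71 against 8, 8 and 10. The log2 fold change was 3.21 (SE 0.40, edgeR adjusted p 0.000380; 9.22-fold), and the gene passed the low-count filter only through the ALDH_High libraries. A transcript on the opposite strand, BX322234.1, overlaps THBS2 and had 7 to 25 counts. No source used here says if reads were counted by strand, which leaves the low values of THBS2 uncertain. On the log2(TPM + 1) scale, which compresses such low values, its difference was 0.97.

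For each THBS2 transcript there were 137, 791 and 723 THBS1 transcripts in ALDH_High libraries 1 to 3 and 3909, 4668 and 2919 in ALDH_Low libraries 1 to 3, as ratios of TPM. The ratio was lower in every ALDH_High library, with a log2 difference of -3.13 and an exact two-sided permutation p of 0.1, the smallest that 3 against 3 libraries allow. This difference is mainly that of THBS2, with its few counts in ALDH_Low, and is no separate evidence that the pair differ in response. Leaving out ALDH_High library 1, where THBS1 was low, gave a log2 difference of -2.31.

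TGFBI (ENSG00000120708, chromosome 5, 136028988 to 136063818), an integrin-binding matrix protein named for its induction by TGF-beta, fell. It had 48.6, 52.2 and 51.5 CPM in ALDH_High and 198, 175 and 215 CPM in ALDH_Low. The groups stood well apart, and the ALDH_High libraries lay close together. The mean was 50.8 ± 1.94 against 196 ± 20.3 CPM (SD, n = 3), 3.86-fold lower in ALDH_High (log2 fold change -1.95, SE 0.12, edgeR adjusted p 5.95e-06).

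FBN1 (ENSG00000166147, chromosome 15, 48408313 to 48645721) fell as well. Its libraries had 33.1, 25.6 and 32.1 CPM in ALDH_High and 70.5, 60.5 and 65.4 CPM in ALDH_Low, again with no overlap. The mean was 30.3 ± 4.05 against 65.5 ± 5.00 CPM (SD, n = 3), 2.16-fold lower (log2 fold change -1.11, SE 0.13, edgeR adjusted p 0.000281). FBN1 and THBS1 lie on the same chromosome as ALDH1A3, chromosome 15, on which 363 genes averaging 5 CPM or more had a median change of 0.01 (log2).

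**Figure D1:**
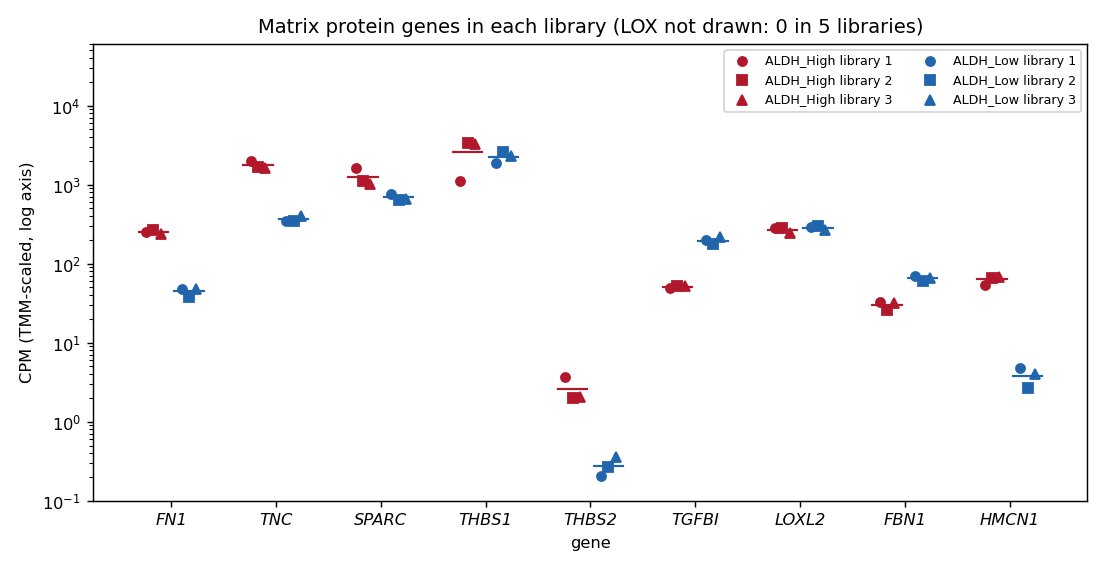
CPM (log axis) of 9 of the 10 genes in each library, with red symbols for ALDH_High, blue for ALDH_Low, a symbol shape for each library number and a short line at each group mean; LOX is not drawn because its count was 0 in 5 libraries. The red and blue symbols are separate for FN1, TNC, SPARC, THBS2, TGFBI, FBN1 and HMCN1, and mixed for THBS1, where the ALDH_High circle at 1095 CPM lies under all others, and for LOXL2.

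LOX and LOXL2, both copper-dependent amine oxidases that cross-link matrix fibres, showed no difference that passed. LOX (ENSG00000113083, chromosome 5, 122063195 to 122078413) was close to absent: it had 8 counts in ALDH_High library 2 and 0 in each of the other 5, where a count of 0 allows up to 3 counts per library, and it was below the filter for testing. In the authors' deposited table, the log2 coefficients of LOX against the group named 1A3 are 3.69 (high) and -0.07 (low). The only counts behind the high value in these libraries are those 8. SRFBP1 overlaps LOX on the opposite strand and had 326 to 673 counts, so the 8 are uncertain where strand was not used. LOXL2 (ENSG00000134013, on chromosome 8), which shares its locus with ENTPD4 on the same strand, was well expressed, with 280.5, 284 and 243 CPM in ALDH_High and 292, 301 and 265 CPM in ALDH_Low. Its libraries overlapped between the groups, with means of 269 ± 22.5 and 286 ± 19.1 CPM (SD, n = 3), and the log2 fold change was -0.09 (SE 0.11, edgeR adjusted p 0.649). This log2 fold change lay between -0.14 and -0.0036 as each library in turn was left out.

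The other members of the lysyl oxidase family moved in both directions. LOXL3 had 292, 308 and 257 TPM in ALDH_High and 44.04, 61.2 and 59.2 TPM in ALDH_Low (2.33 on the log2 scale, SE 0.16, edgeR adjusted p 1.22e-05). LOXL4 had 171, 76.4 and 79.1 TPM against 27.6, 20.9 and 18.2 TPM (2.28, SE 0.33, edgeR adjusted p 0.000920), with ALDH_High library 1 the highest. LOXL1, an enzyme tied to elastic fibre upkeep, was low and fell, with 0.317, 0.267 and 0.179 TPM against 2.19, 1.73 and 1.85 TPM (-2.90, SE 0.39, edgeR adjusted p 0.000613); it had only 5, 6 and 4 counts in ALDH_High and reached the test through ALDH_Low, and its antisense partner had 2 to 51 counts, so its value is uncertain. Without ALDH_High library 1 the log2 fold change of LOXL4 was 1.72. In level, LOXL2 was the most abundant of the family in ALDH_Low and LOXL3 in ALDH_High.

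**Figure D2:**
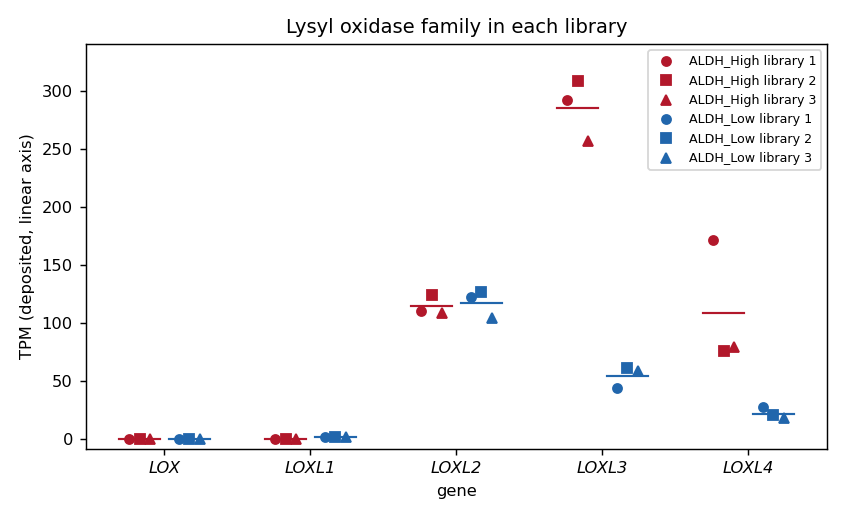
Deposited TPM (linear axis) of LOX and LOXL1 to LOXL4 in each library, red for ALDH_High and blue for ALDH_Low, with a line at each group mean. LOXL3 runs from 257 to 308 TPM in ALDH_High and from 44.04 to 61.2 TPM in ALDH_Low, LOXL2 overlaps, and LOX and LOXL1 lie near 0 in both groups.

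HMCN1 (ENSG00000143341, chromosome 1, 185734391 to 186190949) had 54.1, 66.5 and 68.4 CPM in ALDH_High and 4.75, 2.71 and 4.06 CPM in ALDH_Low. The means were 63.0 ± 7.77 and 3.84 ± 1.04 CPM (SD, n = 3), with a fitted log2 fold change of 4.03 (SE 0.21). This is the difference for which HMCN1 was picked, so it says nothing beyond that choice. Its near relative HMCN2, measured independently of that choice, went the other way at a low level, from 0.808 to 1.34 TPM in ALDH_Low to 0.310 to 0.747 TPM in ALDH_High (log2 fold change -1.29, SE 0.40, edgeR adjusted p 0.0444). Per length HMCN1 lay between TGFBI and FBN1 in ALDH_High, at 14.2 ± 2.61 TPM, and between FN1 and THBS2 in ALDH_Low, at 0.830 ± 0.222 TPM (SD, n = 3).

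Of the 9 genes grouped by function, 8 were tested and 6 passed, 4 higher and 2 lower, where 20.6% of all genes passed. The same 6 had groups that did not overlap in CPM, as did 37.8% of all genes tested. The median log2 fold change of the 8 was 0.54, against -0.01 for all genes tested. THBS2 reached the test only through the group where it was high, and the genes were chosen with earlier results of these data known, so neither value sets them apart from other genes. In these bulk libraries, more cells that make a transcript and more transcript per cell cannot be told apart. In the authors' deposited table the high and low coefficients, which share the group 1A3, differ by 2.53 for FN1, 2.29 for TNC, 0.89 for SPARC, 0.23 for THBS1, -1.93 for TGFBI and -1.09 for FBN1. These coefficients are named for the same high and low groups, so they are no independent evidence.

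**Figure D3:**
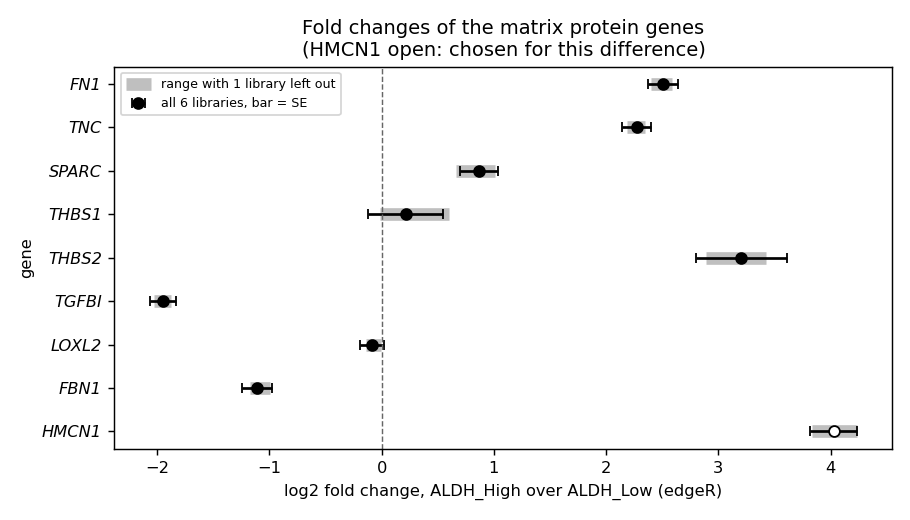
Log2 fold change of ALDH_High over ALDH_Low from edgeR for 9 genes, with points for the fit on all 6 libraries, black bars for its SE and grey bands for the range when single libraries were left out; HMCN1 is open because it was chosen for this difference. The grey band of THBS1, from -0.01 to 0.60, is among the widest and reaches 0, while those of FN1, TNC, SPARC, THBS2, TGFBI and FBN1 stay on their side of 0.

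The order of the levels also differed between the groups. By mean TPM in ALDH_High it ran SPARC (1476 ± 265), THBS1 (592 ± 316), TNC (393 ± 18.9), LOXL2 (114 ± 8.29), FN1 (68.8 ± 5.58), TGFBI (30.0 ± 3.01), HMCN1, FBN1 (7.89 ± 0.979), THBS2 (1.23 ± 0.364) and LOX (SD, n = 3). THBS1 and TNC were the only neighbours in that order whose libraries overlapped. In ALDH_Low it ran SPARC (789 ± 98.0), THBS1 (483 ± 76.7), LOXL2 (118 ± 11.7), TGFBI (111 ± 8.63), TNC (78.8 ± 4.23), FBN1 (16.5 ± 1.40), FN1 (11.7 ± 1.48), HMCN1, THBS2 (0.129 ± 0.0290) and LOX, and there LOXL2 and TGFBI overlapped. FN1 thus stood over TGFBI and FBN1 in every ALDH_High library and under both in every ALDH_Low library.

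Together the 10 transcripts summed to 2642, 2779.9 and 2672 TPM in ALDH_High libraries 1 to 3 and to 1658, 1643 and 1524 TPM in ALDH_Low libraries 1 to 3. SPARC alone made up 54.8 ± 10.8% of that sum in ALDH_High and 49.0 ± 4.69% in ALDH_Low (SD, n = 3). Its share was 67.3% in ALDH_High library 1, and 49.1% and 48.1% in ALDH_High libraries 2 and 3. The latter lay within the ALDH_Low range of 45.5% to 54.3%. TNC took 14.6 ± 0.985% against 4.91 ± 0.499%, and TGFBI 1.11 ± 0.0973% against 6.94 ± 0.769% (SD, n = 3). THBS1 took 8.59% in ALDH_High library 1 and between 24.9% and 34.4% in the other 5 libraries. LOXL2 took 4.24 ± 0.199% against 7.31 ± 0.424% (SD, n = 3), so the largest shares after SPARC and THBS1 were those of TNC in ALDH_High and of LOXL2 and TGFBI in ALDH_Low. These shares contain the HMCN1 difference only to the extent of its 0.525 ± 0.0911% and 0.0517 ± 0.0136%.

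**Figure D4:**
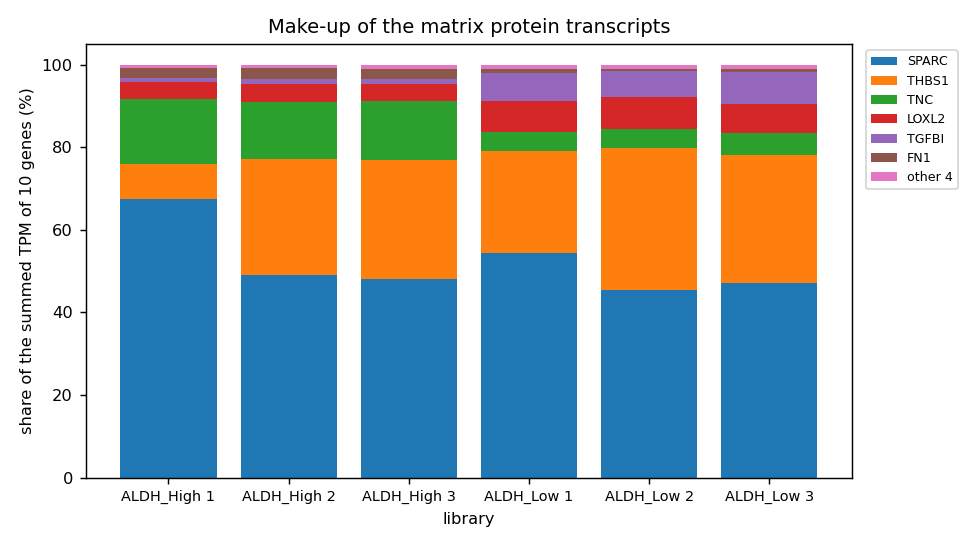
Share (%) of each gene in the summed TPM of the 10 genes, 1 bar for each library; the 4 genes drawn together are THBS2, LOX, FBN1 and HMCN1. TNC takes 13.8% to 15.7% in the ALDH_High bars and 4.58% to 5.49% in the ALDH_Low bars, TGFBI shows the reverse, and the THBS1 band is thin in ALDH_High library 1.

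Profiles of log2 CPM across the 6 libraries were compared among 100 candidates (the other genes of the set and those of the 5 lists described next). The profile most like that of FN1 was that of HMCN1 (Pearson r 0.997). HMCN1 was picked for its difference between the groups, so this r says nothing beyond that choice. The next for FN1 was TNC (0.992), and the one most like TNC was IGFBP3 (0.999). The nearest profiles were LOXL4 for SPARC (0.994), PLOD3 for THBS2 (0.994), LOXL1 for TGFBI (0.991), NID2 for FBN1 (0.990), EFEMP1 for THBS1 (0.922) and CD36, a low gene, for LOXL2 (0.968). Because the libraries fall into 2 groups, any pair of genes that differ between them gives a high r; the values describe 6 points that share a library each.

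The wider matrix was read through 5 lists of genes: other matricellular proteins, elastic fibre proteins, cross-linking and collagen-modifying enzymes, receptors for these proteins, and regulators of matrix transcription with the TGF-beta pathway. Of 109 genes, 92 were tested and 45 passed, 26 higher and 19 lower. Of all genes tested 20.6% passed, 10.8% higher and 9.83% lower. The median log2 fold change of the 92 was 0.14, against -0.01 for all genes tested. The lists were chosen with earlier results of these data known, so these values do not set their genes apart from others. Some, such as EMILIN3 and LOXL1, also reached the test through the group where they were high. When at least 10 counts were required in every library, 40 genes of the lists passed, 22 higher and 18 lower.

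Among the other matricellular genes, 4 of 19 tested rose and 7 fell (10.8% and 9.83% of all genes), with a median of -0.44. IGFBP3, a secreted carrier of insulin-like growth factors, rose from 39.4 ± 2.34 to 183 ± 30.5 CPM (SD, n = 3; log2 fold change 2.21, edgeR adjusted p 7.56e-06). CCN3, a matricellular protein of the family that includes CCN1, fell from 39.0 ± 13.5 to 3.56 ± 1.35 CPM (-3.47, edgeR adjusted p 4.71e-05). NID2, a basement membrane linker, and SMOC1, a relative of SPARC, fell with log2 fold changes of -2.55 and -1.81. The paralog NID1, more abundant than NID2, rose from 87.4 ± 14.9 to 155 ± 10.8 CPM (SD, n = 3; 0.83, edgeR adjusted p 0.00219). For SMOC1, leaving out ALDH_High library 1 gave -2.31 and leaving out library 3 gave -1.45. Among near relatives of the set, the thrombospondins THBS3 (-0.23, edgeR adjusted p 0.319) and THBS4 (-0.60, edgeR adjusted p 0.314) did not pass, while TNXB of the tenascins fell (-0.86, edgeR adjusted p 0.00640).

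Of 21 elastic fibre genes tested, 8 rose and 3 fell (10.8% and 9.83% of all genes), with a median of 0.06. Among the 8, EMILIN3 (0, 3 and 4 counts in ALDH_Low libraries 1 to 3), FBLN5 (16, 4 and 5) and FBLN7 (7, 3 and 5) reached the test through ALDH_High. The count of rises thus includes genes that the filter kept because they were high there. EFEMP2, the fibulin that brings lysyl oxidase to elastin, rose from 3.36 ± 1.31 to 10.9 ± 2.35 CPM (SD, n = 3; 1.69, edgeR adjusted p 0.00290). FBN2, the fibrillin best known from development, rose from 1.14 ± 0.296 to 3.71 ± 0.624 CPM (1.69, edgeR adjusted p 0.00234), opposite to FBN1, and FBLN1 rose by a log2 fold change of 1.37. ADAMTSL4, a fibrillin-binding protein, fell from 26.7 ± 8.76 to 9.46 ± 0.819 CPM (-1.50, edgeR adjusted p 0.000914). Elastin itself (ELN) did not reach the test; its highest library had 0.248 TPM. In level FBN2 stayed minor: its highest library had 0.599 TPM, under the lowest library of FBN1 at 6.86 TPM.

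Of 15 cross-linking and collagen-modifying enzymes tested, 4 rose and 2 fell (10.8% and 9.83% of all genes), with a median of 0.27. Besides LOXL3 and LOXL4, the rises were those of PLOD3, a lysyl hydroxylase (0.81, edgeR adjusted p 0.000915), and P4HA1, a prolyl hydroxylase subunit (0.74, edgeR adjusted p 0.00202). TGM2, a transglutaminase that binds fibronectin, fell with LOXL1 (-0.70, edgeR adjusted p 0.0216); the 302 genes of its chromosome, 20, that averaged 5 CPM or more had a median of 0.28.

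Among 17 receptor genes tested, 7 rose and 3 fell (10.8% and 9.83% of all genes), with a median of 0.18. With 1 CPM or more on average, the largest rises were ITGA9 (3.69, edgeR adjusted p 0.000297), the chain of a tenascin C receptor, ITGB3 (3.63, edgeR adjusted p 0.000186), which pairs with ITGAV to bind fibronectin and vitronectin, ITGB8 (2.45, edgeR adjusted p 1.35e-05), whose dimer with ITGAV binds latent TGF-beta, and the proteoglycan SDC2 (2.01, edgeR adjusted p 0.000213). ITGAV rose by a log2 fold change of 0.83. ITGA5 and ITGB1, the classical fibronectin receptor, had -0.28 and 0.18 and did not pass (edgeR adjusted p 0.327 and 0.353), nor did CD47 (0.12, edgeR adjusted p 0.599) and CD36 (-0.17, edgeR adjusted p 0.816), receptors of thrombospondin. The 3 that fell were EGFR (-1.78, edgeR adjusted p 9.05e-05), the proteoglycan SDC1 (-1.12, edgeR adjusted p 0.00452) and LRP1, an endocytic receptor that also binds thrombospondin (-1.004, edgeR adjusted p 0.000885).

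Of the 20 regulators, all tested, 3 rose and 4 fell (10.8% and 9.83% of all genes), with a median of -0.08. The TGF-beta receptor TGFBR2 fell (-0.74, edgeR adjusted p 0.0101), as did the signal transducer SMAD2 (-0.55, edgeR adjusted p 0.00662), and MRTFA, a cofactor of SRF, rose (0.40, edgeR adjusted p 0.0414). SMAD7, a feedback inhibitor of the TGF-beta pathway, fell from 19.4 ± 1.71 to 7.33 ± 0.560 CPM (-1.41, edgeR adjusted p 0.000143). SMAD7 and SMAD2 lie on chromosome 18, where the median over 165 genes averaging 5 CPM or more was -0.27. TGFB3 (1.26, edgeR adjusted p 0.0253) and the co-receptor TGFBR3 (1.13, edgeR adjusted p 0.0326) rose from low levels; TGFB3 passed in 9 of 15 alternatives and TGFBR3 in 8 of 13. TGFB1, the most abundant of the ligands, did not pass (-0.39, edgeR adjusted p 0.214), and neither did YAP1, TEAD1 to TEAD4 or SRF, with edgeR adjusted p from 0.0660 (TEAD3) to 0.737 (TEAD2). NID2, EFEMP2, ADAMTSL4 and TGFB3 each overlap a more abundant gene on the opposite strand in the annotation, so their counts are uncertain where strand was not used. ITGA9 had 7 counts in its lowest ALDH_Low library, and ITGA9-AS1 on the opposite strand had 8 to 16, which makes its low values uncertain as well.

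**Figure D5:**
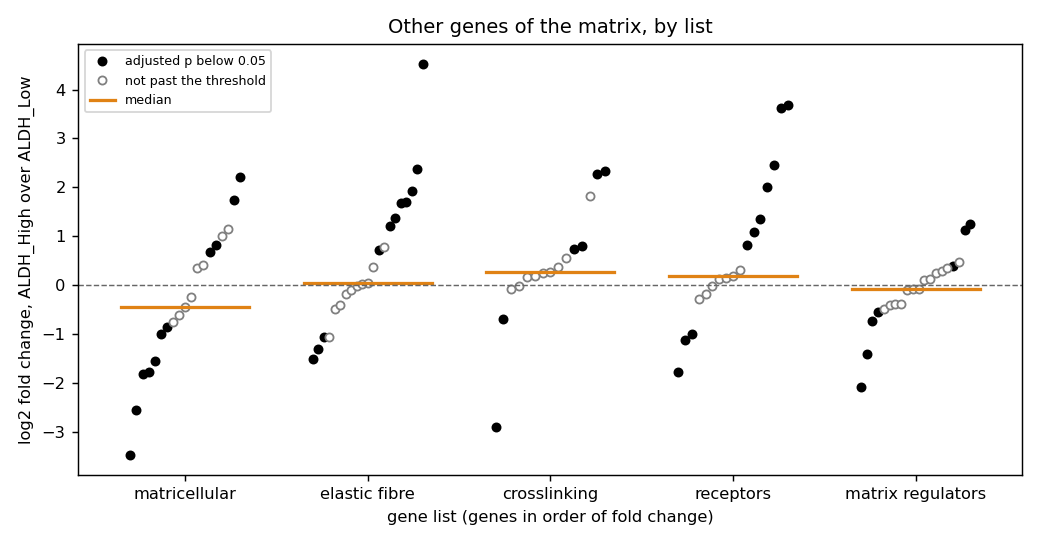
Log2 fold change (ALDH_High over ALDH_Low) of each tested gene in the 5 lists, with filled points for genes past an adjusted p of 0.05, open points for the rest and an orange line at each list's median. Filled points lie on both sides of 0 in every list, with medians from -0.44 (matricellular) to 0.27 (crosslinking).

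The fibroblast and endothelial markers were low in both groups, and the leukocyte list was not, through HLA-DRA and CD68. The 12 fibroblast markers summed to 23.6 to 25.5 TPM in ALDH_High and 26.8 to 32.0 TPM in ALDH_Low. Of these, 8 were tested, 0 passed as higher and 3 fell (PDGFRB, COL6A3 and TWIST2). The 5 that did not pass went both ways. Log2 fold changes were 1.30 for DCN (edgeR adjusted p 0.0656) and 0.72 for LUM (edgeR adjusted p 0.0718). They were 0.55 for PDGFRA, -0.34 for COL1A1 and -0.10 for COL1A2. COL3A1 had at most 0.117 TPM. The 6 endothelial markers summed to 3.12 to 3.18 TPM in ALDH_High and 0.736 to 0.950 TPM in ALDH_Low; KDR was the 1 that rose, and the bulk of the ALDH_High sum, with CLDN5 at 0 counts throughout. Of the 10 leukocyte markers, PTPRC had at most 0.138 TPM and CD3E at most 0.0654 TPM; their sum, 606 to 643 TPM in ALDH_High and 94.7 to 121 TPM in ALDH_Low, was mostly HLA-DRA in ALDH_High (mean 604 TPM), which melanoma cells can make, and HLA-DRA (49.96 TPM) with CD68 (55.8 TPM) in ALDH_Low. All 5 leukocyte markers tested passed, 2 higher (HLA-DRA, LYZ) and 3 lower (CD68, CD14, FCER1G). CD14 (3, 7 and 12 counts in ALDH_High libraries 1 to 3) and FCER1G (6, 5 and 6) reached the test through ALDH_Low. The part of the leukocyte markers in the results was not tested. The share of all genes tested to set beside each marker list is 20.6% passing, 10.8% higher and 9.83% lower. Of the 11 melanoma markers, 7 were tested and 5 passed. SOX10, S100B, S100A1 and ERBB3 rose, and MITF fell. PAX3 did not pass (log2 fold change -0.22, edgeR adjusted p 0.359). The pigment genes MLANA, TYR, TYRP1, DCT and PMEL had at most 0.526 TPM in any library. The summed melanoma markers, 623 to 680 TPM in ALDH_High and 141 to 160 TPM in ALDH_Low, moved with FN1, TNC and SPARC, and their part in those rises was not tested.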

How the data were processed

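The 6 libraries are named by the labels as 3 of ALDH_High and 3 of ALDH_Low. Per the labels' protocols, total RNA was made into stranded messenger RNA libraries with a TruSeq kit. The submitters' processing notes name FastQC 0.11.3, STAR 2.5.1b, HTSeq 0.6.1, DESeq2 and GRCh38, without roles; the annotation release is not given in the sources used here. The authors deposited estimated counts, and these were rounded to whole numbers here. After rounding, between 133 and 177 genes per library had a count of 0 beside a TPM above 0. The authors also deposited TPM and, per the file headers, log2 coefficients of a DESeq2 model against a group named 1A3.

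Counts were filtered with filterByExpr, scaled by TMM and tested with edgeR 4.0.16 (glmQLFit, glmQLFTest) without the replicate number, and p-values were adjusted over all 17047 genes tested; an adjusted p below 0.05 passed. SE is the log2 fold change over the square root of F. Intervals from counts cover counting error only. The script was tested on simulated data. Alternatives used DESeq2 1.42.0, limma 3.58.1 on log2(TPM + 1) and log2(TPM + 0.1), other scalings and filters, the replicate number as a block, and each library left out.

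The genes and lists (matricellular, elastic fibre, crosslinking, receptors, matrix regulators; melanoma, fibroblast, leukocyte and endothelial markers) were chosen with earlier results of these data known. Named from each of the first 5 lists were up to 4 genes past the threshold that averaged 1 CPM or more. They were ranked by the size of their log2 fold change. Other names were chosen after their values were seen, mostly as relatives of named genes, receptors or regulators. A gene that the rule names is not reported here. Positions come from GENCODE 44 and promoters from RefSeq (GRCh38.p14).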

Additional observations from a re-analysis of the deposited data

How the results depend on the processing

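FN1, TNC, SPARC, TGFBI and FBN1 kept their direction and passed in all 15 alternatives at an adjusted p of 0.05, with log2 fold changes of 2.40 to 2.58, 2.19 to 2.35, 0.66 to 1.009, -2.03 to -1.86 and -1.17 to -0.98. THBS2 passed in the 12 that tested it (0.97 to 3.42); at least 10 counts in every library, or a mean TPM of at least 1, left it out, which took the count of genes passing from 6 to 5. LOXL2 passed in 0. THBS1 changed sign without ALDH_High library 2 (-0.013), and passed only without ALDH_High library 1 (0.60), where 7 of the set passed. In that fit 4221 genes of the whole table passed, against 3513 with all libraries. HMCN1 was 3.05 on log2(TPM + 1). Among the fits that left out 1 library, the lower genes of the whole table numbered 1073 to 2049, and the fewest came without ALDH_High library 2. In limma on log2(TPM + 1) and log2(TPM + 0.1) they numbered 1047 and 1051. Without a TPM filter limma gave 2006 genes, 1155 higher and 851 lower, and 12 lower genes in the 5 matrix lists against 19. Asking also for a 2-fold change, stricter by construction, left 1958 genes, 1004 higher and 954 lower, and 5 of the set (3 higher, 2 lower), since SPARC at 0.87 no longer passed. Of the limma differences, the cause was not tested.

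With the replicate number as a block, edgeR gave 3748 genes against 3513, 3330 of them shared, and 6 of the set (4 higher, 2 lower), with THBS1 at 0.06 (edgeR adjusted p 0.886); it changed no call of the set and gave 48 genes of the 5 matrix lists (28 higher, 20 lower) against 45. Deviations from the group mean correlated, between same-numbered libraries, at 0.15, 0.08 and 0.11 on edgeR's default log2 CPM scale, and 0.19, 0.13 and 0.11 with 0.5 added to CPM. Whether every pair lies over 0.1 thus depends on the scale, and the planned fit without the block was kept. The planned LOX to LOXL2 ratio was not run, since LOX was at 0 counts in 5 libraries. Depth limits LOX and THBS2, the latter with 8 to 10 counts in ALDH_Low.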
